A study of Mus musculus with 7 samples.

Results

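The genes of proximal T cell receptor signalling are those whose products carry the signal from the antigen receptor at the membrane to the first transcription factors. Here they are 35 named genes, chosen by symbol: the CD3 chains, zeta chain and Cd4 (5 genes), the proximal kinases (5), the adaptors with the phospholipase Plcg1 and the exchange factor Vav1 (6), the diacylglycerol branch (7), the calcium and NFAT branch (5) and the genes that set or restrain signal strength (7). Each of the 35 matched a row among the 51138 genes of the count table, and 35 of 35 passed the filter on low counts, which left 15954 genes to test.

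RNA-seq was made of regulatory T cells (Tregs) from 4 spleen samples taken 72 h after 20 ug of FP, a fusion protein of interleukin-2 (IL-2) and its receptor chain CD25. They were set against Tregs from 3 spleen samples taken 72 h after 100 uL of phosphate-buffered saline (PBS). All mice were of the C57/BL6 strain and carried a red fluorescent protein reporter of Foxp3, the transcription factor that defines Tregs. The labels give no age and do not say that each sample was a separate mouse, and p-values here reflect how far these samples scatter, some of which may be technical.

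When the receptor binds peptide on MHC class II, Lck phosphorylates the CD3 and zeta chains, Zap70 docks on them and phosphorylates Lat and Lcp2 (SLP-76), and on that scaffold Tec-family kinases activate phospholipase C gamma 1. The phospholipase makes diacylglycerol, which recruits Rasgrp1 and protein kinase C theta, and inositol trisphosphate, which releases calcium and sends NFAT factors to the nucleus. Tregs need receptor signals for their development and suppressive function, and their receptor signalling is known to be damped relative to conventional T cells.

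Total counts ran from 9956509 to 13429878 per library, and levels below are counts divided by the library size and put on a common scale (CPM) with factors from the trimmed mean of M values (TMM). The sort was checked with Foxp3, which had 483, 595, 571 and 507 CPM after FP and 489, 497 and 483 CPM after PBS. Its edgeR log2 fold change was 0.14 (adjusted p = 0.292). In the annotation, 45.5% of the Foxp3 exon length overlaps other tested genes, so its value is uncertain. The 6 listed Treg markers, Foxp3 among them, summed to 4170 to 4790 CPM after FP and 2361 to 2588 CPM after PBS. Il2ra, the CD25 gene, had the highest mean of the 6 after FP, 1934 CPM, against 600 CPM after PBS. Ikzf2 followed with 1597 CPM after FP and 1097 CPM after PBS. Ikzf4, like Foxp3, did not pass the test (log2 fold change -0.12, adjusted p = 0.278, edgeR). Il2ra rose by 1.69 in log2 units (SE 0.14, adjusted p = 1.65e-05, edgeR), and the proliferation gene Mki67 by 4.61 (SE 0.26, adjusted p = 3.06e-06, edgeR). All 15 macrophage and monocyte markers fell. Their sum was 44.9 to 175 CPM in the 4 FP libraries and 888, 2213 and 1580 CPM in PBS replicates 1, 2 and 3, and the 2 with the highest CPM after PBS, taken without regard to gene length, were Vcam1, at 10.4 ± 8.25 CPM after FP and 313 ± 130 CPM after PBS (SD, n = 4 and 3), and Slc40a1, at 8.28 ± 6.08 CPM after FP and 299 ± 132 CPM after PBS. None of the 15 was at 0 in a whole group. Of 7 CD8 T and NK cell markers, 1 was at 0 in all FP libraries and 2 in all PBS libraries. Of 7 neutrophil markers, 1 was at 0 in all FP libraries and 3 in all PBS libraries. Summed B cell markers were 31.7 to 41.2 CPM after FP and 33.2 to 56.3 CPM after PBS, CD8 T and NK cell markers 8.9 to 14.3 CPM after FP and 16 to 18.1 CPM after PBS, dendritic cell markers 11.7 to 15.7 CPM after FP and 24.3 to 36.1 CPM after PBS, neutrophil markers 1.61 to 3.99 CPM after FP and 0.262 to 0.366 CPM after PBS, and erythroid markers 10.1 to 28.4 CPM after FP and 12.7 to 30 CPM after PBS. The part of these other cells in the results was not tested, and in bulk samples fewer cells of a type and less RNA per cell cannot be told apart.

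Of the 35 genes, 10 were higher after FP at an adjusted p under 0.05 in edgeR's quasi-likelihood test, 0 were lower and 25 did not pass. The calls were 28.6% of the 35 genes, against 39.5% of all 15954 genes tested, where higher calls made up 21.0% and lower calls 18.5% of the genes tested. Unadjusted p under 0.05 was reached by 12 of the 35, and the further 2, Cblb and Ubash3a, had negative log2 fold changes. DESeq2 called 11 of them higher and 0 lower, where 22.5% of all genes were higher and 17.5% lower. Limma-voom called 10 higher and 1 lower (Cblb), where 20.0% were higher and 18.8% lower. The sizes were small. The median absolute log2 fold change was 0.16 for the 35 genes and 0.40 for all genes tested, the signed medians were 0.08 and -0.05, and 1 of the 35, Tec, was called at 2-fold or more. With TMM factors, the 95% interval of the fold change lay within 1.5-fold in either direction for each of the 25 genes that did not pass. It did so for 27 of all 35 and for 4418 of all 15954 genes tested. The intervals do not take in the choice of scaling, which moved these values, as given below. Groups did not overlap for 13 of the 35, 11 with FP above and 2 with FP below, and for 46.7% of all genes.

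The number of calls depended on the PBS libraries and on the scaling. Without PBS replicate 3 the calls were 3 higher (Tec, Nfatc2 and Txk), and without PBS replicate 2 they were 5 higher (these with Lat and Csk). Calls over the whole table were fewer in the same fits: 14.3% of 16159 genes were higher without PBS replicate 3 and 15.2% of 16166 without PBS replicate 2. With upper-quartile factors, 3 of the 35 were higher and 10 lower, where 15.0% of all genes were higher and 30.2% lower. With library size alone 2 were higher and 10 lower, where 12.7% of all genes were higher and 31.5% lower. Both scalings moved the median of all genes, to -0.25 and -0.31 on the log2 scale, and the median of the 35 genes was then -0.12 and -0.18. The 35 genes' median stood 0.13 to 0.14 above that of all genes tested under the TMM, DESeq2, upper-quartile and library-size scalings, but the difference was 0.07 without FP replicate 2 and 0.22 with no filter on low counts. Tec and Nfatc2 were called higher under each of the 15 alternatives.

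**Figure D1:**
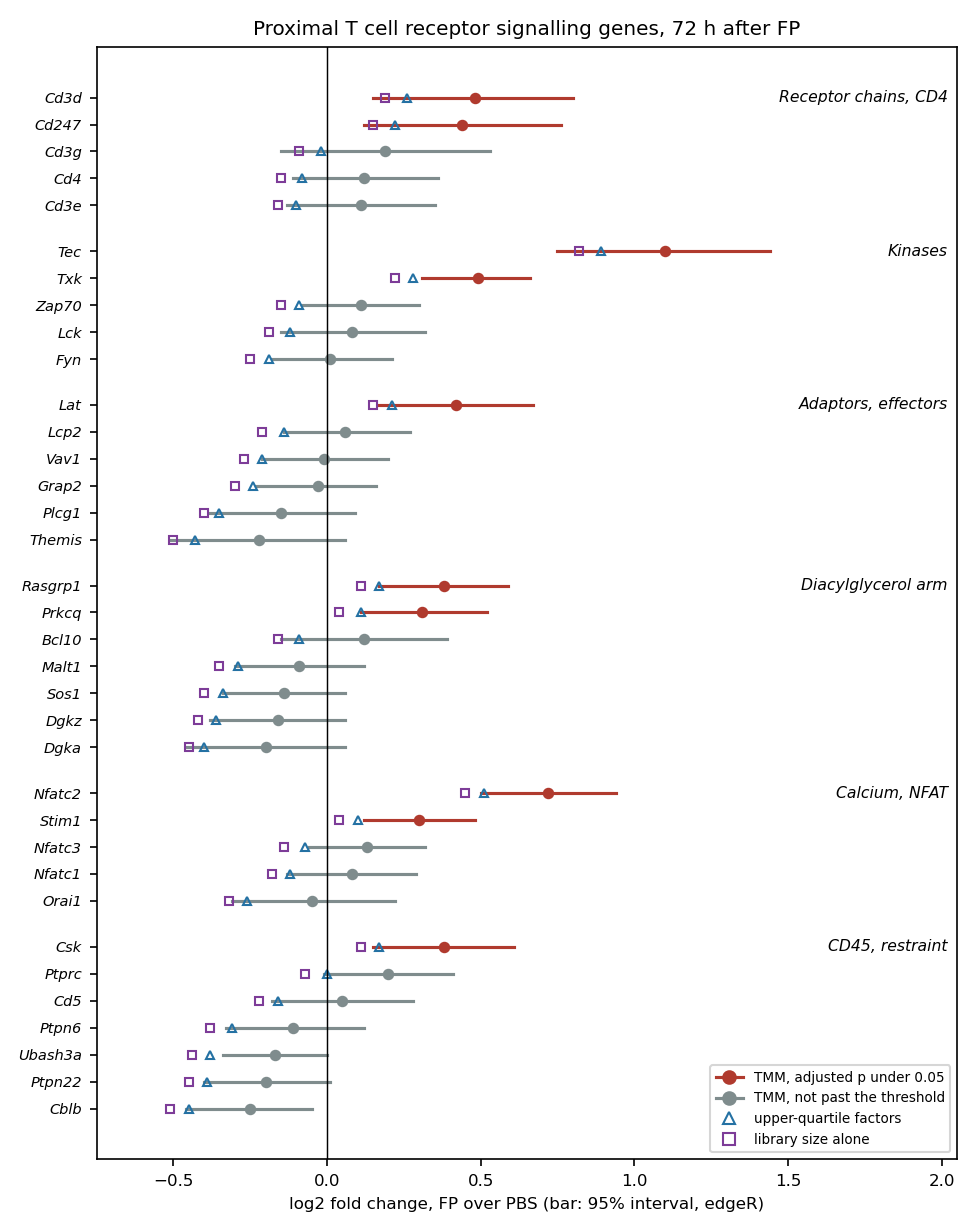
Log2 fold change (FP over PBS, horizontal axis) of each of the 35 genes, grouped by role, with bars for the 95% intervals from edgeR with TMM factors, red for an adjusted p under 0.05 and grey otherwise; open triangles and squares give the same value under upper-quartile and library-size scaling. Tec (1.10) and Nfatc2 (0.72) stand furthest to the right and the lowest point is Cblb (-0.25); the open symbols lie to the left of the filled ones, and under either of those scalings 10 genes are called lower.

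Promoters are shown for 2 neighbouring pairs of genes and for Nfatc2. They run from 250 bases before to 50 after the start of transcription, come from RefSeq on GRCm38.p6 and are written 5′ to 3′ on the gene's strand, with capitals for matches on either strand to the NFAT core GGAAA and to the STAT5 palindrome TTCNNNGAA. STAT5 is the factor that the IL-2 receptor activates. Tec and Txk, called in the same direction, lie side by side on the minus strand of chromosome 5, 2938 bp apart. The Tec promoter is at chr5:72868399-72868698 and the first Txk promoter at chr5:72752728-72753027.
Tec: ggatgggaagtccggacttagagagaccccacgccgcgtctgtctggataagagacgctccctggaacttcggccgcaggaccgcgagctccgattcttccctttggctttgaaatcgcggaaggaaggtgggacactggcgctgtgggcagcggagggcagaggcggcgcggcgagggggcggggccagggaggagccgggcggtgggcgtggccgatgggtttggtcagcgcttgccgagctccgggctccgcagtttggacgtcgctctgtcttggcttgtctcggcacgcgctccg
Txk: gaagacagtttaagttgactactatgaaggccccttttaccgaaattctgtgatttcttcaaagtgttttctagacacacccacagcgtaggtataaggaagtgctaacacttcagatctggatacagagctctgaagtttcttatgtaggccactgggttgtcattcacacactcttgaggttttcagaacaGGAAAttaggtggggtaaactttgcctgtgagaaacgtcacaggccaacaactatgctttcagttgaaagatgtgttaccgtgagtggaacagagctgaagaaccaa
Cd3d and Cd3g, of which only Cd3d was called, lie head to head on chromosome 9 with 1354 bp between them. The Cd3d promoter is at chr9:44981536-44981835 on the plus strand and that of Cd3g at chr9:44980382-44980681 on the minus strand.
Cd3d: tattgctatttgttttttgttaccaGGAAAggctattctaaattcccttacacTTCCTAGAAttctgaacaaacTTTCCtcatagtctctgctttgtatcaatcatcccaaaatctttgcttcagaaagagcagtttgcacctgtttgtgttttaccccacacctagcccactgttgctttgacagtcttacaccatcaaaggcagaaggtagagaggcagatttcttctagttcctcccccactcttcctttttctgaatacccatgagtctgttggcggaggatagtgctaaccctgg
Cd3g: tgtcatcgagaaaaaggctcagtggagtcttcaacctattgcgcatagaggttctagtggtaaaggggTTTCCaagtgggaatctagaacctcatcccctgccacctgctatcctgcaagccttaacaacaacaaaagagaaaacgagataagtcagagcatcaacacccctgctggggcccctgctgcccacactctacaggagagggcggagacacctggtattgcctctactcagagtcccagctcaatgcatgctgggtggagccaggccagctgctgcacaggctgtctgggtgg
Nfatc2, the called NFAT gene, has its first promoter at chr2:168601608-168601907 on the minus strand.
Nfatc2: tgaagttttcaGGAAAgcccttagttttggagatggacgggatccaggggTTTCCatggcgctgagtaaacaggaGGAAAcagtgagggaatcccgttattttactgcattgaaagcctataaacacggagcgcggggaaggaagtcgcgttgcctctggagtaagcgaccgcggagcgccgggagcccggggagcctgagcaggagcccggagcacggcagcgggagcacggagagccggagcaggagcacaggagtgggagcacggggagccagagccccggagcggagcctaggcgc
The Tec window held no match to either motif and had a G and C content of 67.7%, and the Txk window held 1 NFAT core match at 42.7%. The Cd3d window held 2 NFAT core matches and 1 STAT5 match, that of Cd3g 1 NFAT core match, and that of Nfatc2 3 NFAT core matches. Second promoters of Txk and Nfatc2, not shown, held 2 and 1 NFAT core matches and no STAT5 match. Of 46 RefSeq promoters found for 32 of the 35 genes, 30 (65.2%) held the NFAT core and 4 (8.7%) the STAT5 palindrome. Among all 32851 promoters of that length the shares were 61.3% and 8.3%. A match of letters is a description and not a binding site.

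The receptor chains and Cd4 had log2 fold changes from 0.11 to 0.48 with TMM factors, while Cd3e, Cd3g and Cd4 were negative under upper-quartile and library-size scaling. Cd3d, the delta chain of CD3 (ENSMUSG00000032094.8, chr9:44981786-44987339, plus strand, GRCm38), had 299, 313, 229 and 213 CPM after FP and 209, 187 and 173 CPM after PBS. The groups did not overlap, although FP replicate 4 stood close above PBS replicate 1. Cd3d rose by 0.48 in log2 units (SE 0.14, adjusted p = 0.0246, edgeR), a call that was lost without FP replicate 2 (0.38, adjusted p = 0.0592), PBS replicate 2 (0.47, adjusted p = 0.0821) or PBS replicate 3 (0.41, adjusted p = 0.109) and with upper-quartile (0.26) or library-size (0.19) scaling. Cd247, the zeta chain with the most activation motifs of the complex (ENSMUSG00000005763.15, chr1:165788681-165877277, plus strand), had 258, 299, 224 and 188 CPM after FP and 194, 169 and 174 CPM after PBS. FP replicate 4 lay below PBS replicate 1, so the groups overlapped. Its log2 fold change was 0.44 (SE 0.14, adjusted p = 0.0349, edgeR), and the call was lost when any of FP replicates 1 and 2 and PBS replicates 2 and 3 was left out (log2 fold changes 0.41, 0.32, 0.40 and 0.42 with adjusted p of 0.0569, 0.0738, 0.122 and 0.116) and under upper-quartile (0.22) or library-size (0.15) scaling. In the annotation, 60.3% of the Cd247 exon length overlaps other tested genes, 3007 bp of it Pou2f1 on the opposite strand. Pou2f1 fell by 0.66 (SE 0.09, adjusted p = 0.000281, edgeR), and since the strand setting of the counting is not given, reads of the pair cannot be told apart and the Cd247 value is uncertain.

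Cd3e, the epsilon chain that nucleates CD3 pairing, had 546, 715, 611 and 629 CPM after FP and 615, 581 and 544 CPM after PBS. The gamma chain Cd3g had 413, 440, 304 and 296 CPM after FP and 352, 314 and 288 CPM after PBS, and the coreceptor Cd4 428 ± 45 CPM after FP and 392 ± 32 CPM after PBS (SD, n = 4 and 3). All 3 overlapped between groups, with log2 fold changes of 0.11 (Cd3e), 0.19 (Cd3g) and 0.12 (Cd4) and adjusted p of 0.446, 0.341 and 0.381 (edgeR). In FP replicates 1 and 2 Cd3d and Cd3g were both higher than in FP replicates 3 and 4.

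Ratios of counts within a library do not depend on the scaling of libraries; the pairs given were chosen after their values were seen and are given without a test. Cd3d to Cd3g was 0.725, 0.712, 0.753 and 0.72 in the FP libraries and 0.593, 0.596 and 0.601 in the PBS libraries. The groups stood apart and each was narrow, even though the CPM of both genes varied between FP replicates. Cd3d to Cd3e, at 0.339 to 0.548 after FP and 0.318 to 0.34 after PBS, overlapped.

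Among the kinases, the Tec family held the calls. Tec (ENSMUSG00000029217.16, chr5:72755716-72868483, minus strand), a kinase that phosphorylates phospholipase C gamma, had 26.9, 24, 21.4 and 20.4 CPM after FP and 11.7, 9.22 and 11.5 CPM after PBS. The lowest FP library, replicate 4, stood well above the highest PBS library, replicate 1. Tec rose by 1.10 in log2 units (SE 0.15, adjusted p = 0.00042, edgeR), with counts of 234 to 286 per FP library and 126 to 133 per PBS library, and kept the call in all 15 alternatives (0.82 to 1.18, highest adjusted p = 0.00371). Txk, or Rlk, the family member that is palmitoylated and needs no lipid-binding domain (ENSMUSG00000054892.14, chr5:72695978-72752777, minus strand), had 156, 164, 172 and 163 CPM after FP and 114, 114 and 123 CPM after PBS. No FP library came near the PBS range. Txk rose by 0.49 (SE 0.08, adjusted p = 0.00101, edgeR) and lost its call in 1 of 15 alternatives, the library-size scaling (0.22, adjusted p = 0.152).

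The upstream kinases did not pass the test. Lck, which starts the cascade, averaged 534 ± 59 CPM after FP and 503 ± 23.2 CPM after PBS (SD, n = 4 and 3), Fyn, a second Src-family kinase, 400 ± 27 CPM after FP and 396 ± 6.67 CPM after PBS, and Zap70, which binds the phosphorylated chains, 188 ± 14.2 CPM after FP and 174 ± 4.06 CPM after PBS. Their log2 fold changes were 0.08, 0.01 and 0.11, with adjusted p of 0.543, 0.918 and 0.321 (edgeR) and groups that overlapped.

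**Figure D2:**
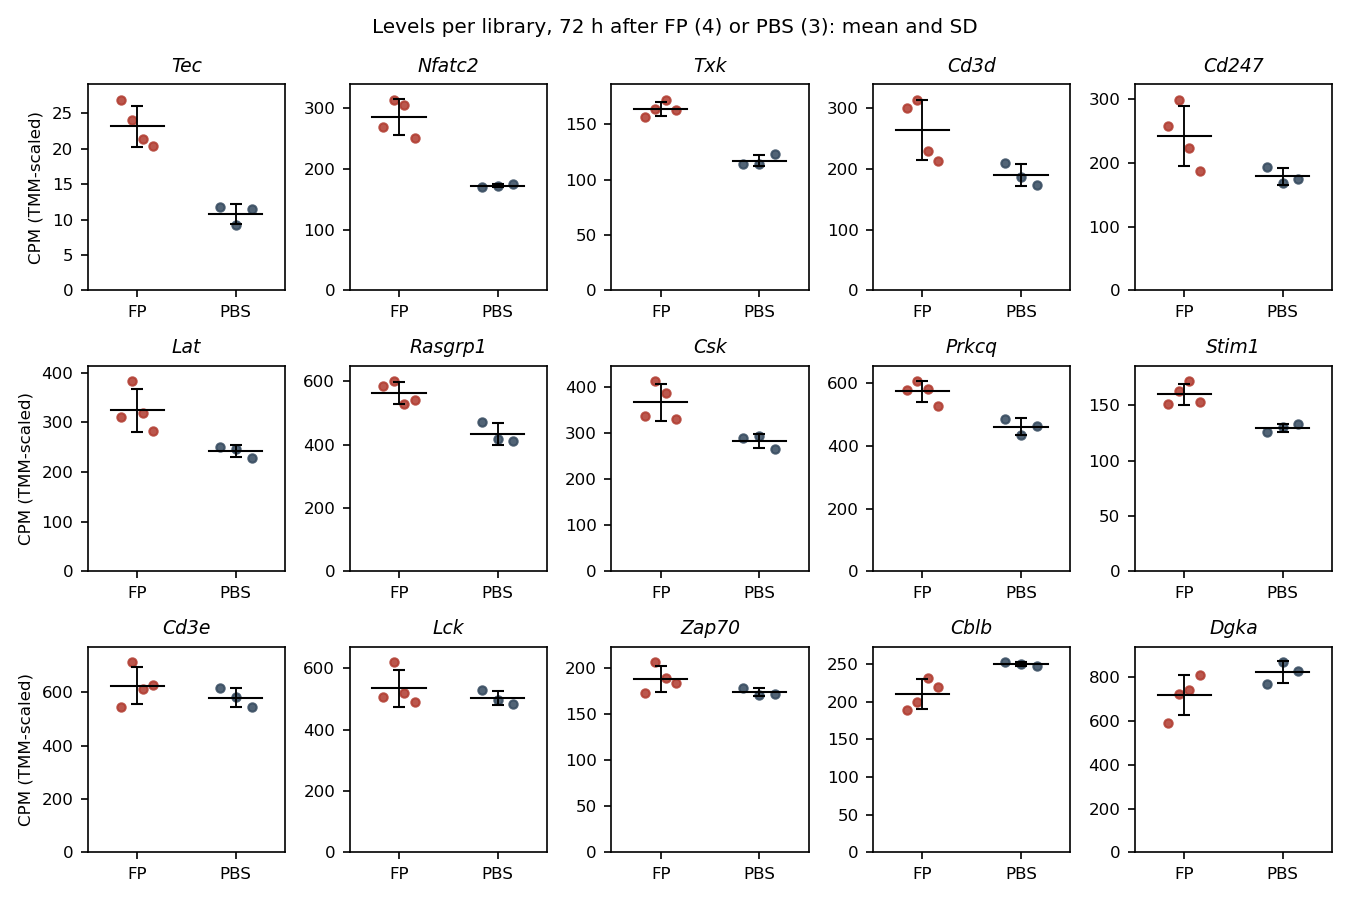
Level (CPM, linear axis from 0) of the genes called higher and of selected genes that were not, with 1 point per library, the 4 FP libraries to the left of the 3 PBS libraries, and lines for each group's mean and SD. Tec and Nfatc2 show a clear gap between groups, and Cd247 an overlap.

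Of the adaptors and their partners, Lat was called. Lat, the membrane scaffold that Zap70 phosphorylates (ENSMUSG00000030742.7, chr7:126363824-126369570, minus strand), had 312, 384, 319 and 282 CPM after FP and 251, 247 and 228 CPM after PBS. The groups did not overlap. Lat rose by 0.42 (SE 0.11, adjusted p = 0.0131, edgeR), and the call was lost without PBS replicate 3 (0.38, adjusted p = 0.0714) and with the upper-quartile (0.21, adjusted p = 0.0704) and library-size (0.15, adjusted p = 0.272) scalings. Its partner Lcp2 (SLP-76) had 430, 493, 422 and 421 CPM after FP and 422, 413 and 433 CPM after PBS, with FP replicate 2 alone above the PBS range. The ratio of Lat to Lcp2 counts was 0.67 to 0.78 in the FP libraries and 0.527 to 0.598 in the PBS libraries, without overlap.

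Grap2 (GADS), which joins Lcp2 to Lat, averaged 195 ± 16 CPM after FP and 199 ± 3.09 CPM after PBS (SD, n = 4 and 3). Vav1, the exchange factor for Rac, averaged 182 ± 13 CPM after FP and 183 ± 13.7 CPM after PBS, and Plcg1, the phospholipase itself, 316 ± 37.4 CPM after FP and 350 ± 14 CPM after PBS. Themis, an adaptor that binds the phosphatase SHP-1, averaged 76.3 ± 12.8 CPM after FP and 89.1 ± 7.46 CPM after PBS. For these 4 the log2 fold change ran from -0.22 for Themis to -0.01 for Vav1, the groups overlapped, and none passed the test.

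In the diacylglycerol branch, Rasgrp1 and Prkcq were called. Rasgrp1, the exchange factor that diacylglycerol brings to Ras (ENSMUSG00000027347.18, chr2:117279993-117343001, minus strand), had 583, 601, 527 and 541 CPM after FP and 472, 417 and 411 CPM after PBS. Prkcq, protein kinase C theta (ENSMUSG00000026778.13, chr2:11172108-11301222, plus strand), had 579, 607, 581 and 527 CPM after FP and 486, 435 and 463 CPM after PBS. All FP libraries lay above all PBS libraries for both genes. Rasgrp1 rose by 0.38 (SE 0.10, adjusted p = 0.0104, edgeR) and Prkcq by 0.31 (SE 0.09, adjusted p = 0.0199, edgeR); without PBS replicate 2 the adjusted p were 0.0624 and 0.111, without PBS replicate 3 they were 0.0678 and 0.0816, under upper-quartile scaling the log2 fold changes were 0.17 and 0.11, and under library-size scaling 0.11 and 0.04, with no call in either.

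Dgka and Dgkz, the kinases that consume diacylglycerol and so limit Rasgrp1, did not pass. Dgka had 591, 725, 743 and 809 CPM after FP and 769, 870 and 828 CPM after PBS, or -0.20 in log2 units (SE 0.12, adjusted p = 0.201, edgeR). Dgkz averaged 361 ± 36 CPM after FP and 403 ± 14.3 CPM after PBS (SD, n = 4 and 3), with -0.16 on the log2 scale (SE 0.10, adjusted p = 0.232, edgeR). Both overlapped between groups, with FP replicate 1 lowest. The ratio of Rasgrp1 to the sum of Dgka and Dgkz counts was 0.644, 0.534, 0.474 and 0.464 in the FP libraries and 0.401, 0.325 and 0.339 in the PBS libraries, apart, with FP replicate 1 well above the other FP libraries.

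Bcl10 and Malt1, which carry the signal to NF-kB, had log2 fold changes of 0.12 and -0.09, and Sos1, the other Ras exchange factor, -0.14. Bcl10 averaged 59.6 ± 8.37 CPM after FP and 55 ± 4.45 CPM after PBS (SD, n = 4 and 3), Malt1 125 ± 7.99 CPM after FP and 133 ± 12.4 CPM after PBS, and Sos1 61 ± 4.48 CPM after FP and 67.5 ± 2.16 CPM after PBS. None of the 3 passed the test and the groups overlapped for each.

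In the calcium branch, Nfatc2 was the second most changed of the 35 genes. Nfatc2 (ENSMUSG00000027544.16, chr2:168476410-168601657, minus strand), the NFAT factor also called NFAT1, had 269, 313, 304 and 250 CPM after FP and 170, 172 and 174 CPM after PBS. The PBS libraries nearly coincided, and every FP library stood far above them. Nfatc2 rose by 0.72 (SE 0.10, adjusted p = 0.000363, edgeR) and was called in all 15 alternatives (0.45 to 0.78, highest adjusted p = 0.00839). Nfatc1 averaged 300 ± 28.1 CPM after FP and 283 ± 6.41 CPM after PBS (SD, n = 4 and 3), with a log2 fold change of 0.08 (adjusted p = 0.522, edgeR). Nfatc3 had 420, 458, 419 and 430 CPM after FP and 415, 370 and 398 CPM after PBS, groups that stood apart by a small gap, at 0.13 (adjusted p = 0.252, edgeR). Nfatc2 made up 28.3, 28.8, 29 and 25.5% of the summed counts of the 3 NFAT genes in the FP libraries and 19.4, 21 and 20.5% in the PBS libraries, a scaling-free share that did not overlap between groups.

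Stim1, the calcium sensor of the endoplasmic reticulum (ENSMUSG00000030987.5, chr7:102267806-102437319, plus strand), had 151, 163, 172 and 153 CPM after FP and 126, 130 and 133 CPM after PBS. The groups did not overlap. Stim1 rose by 0.30 (SE 0.08, adjusted p = 0.0147, edgeR), with the call lost without PBS replicate 2 (0.31, adjusted p = 0.061) or PBS replicate 3 (0.32, adjusted p = 0.0536), with the upper-quartile scaling (0.10, adjusted p = 0.372) and with the library-size scaling (0.04, adjusted p = 0.815). Orai1, the pore that Stim1 opens, averaged 40.9 ± 5.53 CPM after FP and 42.2 ± 1.73 CPM after PBS (SD, n = 4 and 3), at -0.05 (adjusted p = 0.782, edgeR). Stim1 to Orai1 was 3.38 to 4.73 in the FP libraries and 2.87 to 3.21 in the PBS libraries.

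Among the genes that set or restrain the signal, Csk was called. Csk, the kinase that places the inhibitory phosphate on Lck (ENSMUSG00000032312.7, chr9:57626646-57653631, minus strand), had 336, 413, 387 and 330 CPM after FP and 288, 293 and 266 CPM after PBS. The groups did not overlap. Csk rose by 0.38 (SE 0.10, adjusted p = 0.0156, edgeR), and the call was lost without PBS replicate 3 (0.34, adjusted p = 0.0861) and with the upper-quartile (0.17, adjusted p = 0.142) and library-size (0.11, adjusted p = 0.457) scalings. Csk to Lck was 0.666, 0.665, 0.746 and 0.672 in the FP libraries and 0.544, 0.588 and 0.549 in the PBS libraries, apart between groups. Ptprc (CD45), the phosphatase that removes that phosphate, had 2984, 3050, 2829 and 3026 CPM after FP and 2629, 2464 and 2672 CPM after PBS. These groups also stood apart, at 0.20 (SE 0.10, adjusted p = 0.12, edgeR), and DESeq2 called the gene.

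Cblb and Ubash3a were the genes with FP below PBS in every library. Cblb, a ubiquitin ligase that holds back T cell activation (ENSMUSG00000022637.10, chr16:52031225-52208048, plus strand), had 189, 199, 232 and 220 CPM after FP and 253, 250 and 248 CPM after PBS. Its log2 fold change was -0.25 (SE 0.09, adjusted p = 0.0508, edgeR), just above the threshold, and it was called lower under 7 of the 15 alternatives. Ubash3a (STS-2), which dampens receptor signalling, had 132, 141, 139 and 131 CPM after FP and 152, 159 and 148 CPM after PBS, at -0.17 (SE 0.08, adjusted p = 0.0998, edgeR). Neither gene passed the test. The phosphatase Ptpn22 averaged 215 ± 18.6 CPM after FP and 247 ± 12.8 CPM after PBS, the phosphatase Ptpn6 (SHP-1) 133 ± 14.7 CPM after FP and 143 ± 10.6 CPM after PBS, and the inhibitory surface receptor Cd5 413 ± 41.2 CPM after FP and 400 ± 27.8 CPM after PBS (SD, n = 4 and 3). Ptpn22 and Ptpn6 had log2 fold changes of -0.20 (adjusted p = 0.12) and -0.11 (adjusted p = 0.434), and Cd5 of 0.05 (adjusted p = 0.73, edgeR). Csk to Cblb counts were 1.5 to 2.08 in the FP libraries and 1.07 to 1.17 in the PBS libraries.

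**Figure D3:**
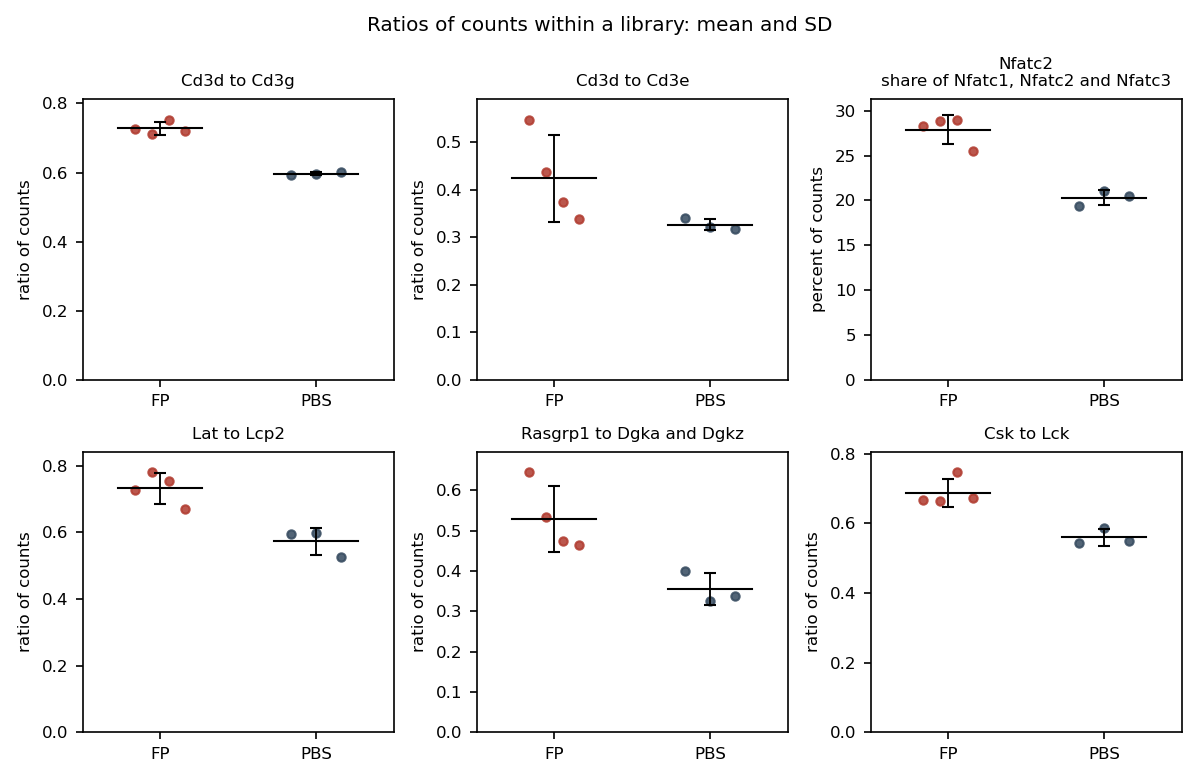
Ratio of raw counts (or share in percent) within each library, which does not depend on library scaling, with 1 point per library, FP to the left of PBS, and lines for the group mean and SD. Lat to Lcp2, at 0.67 to 0.78 after FP and 0.527 to 0.598 after PBS, stands apart between groups; Cd3d to Cd3e overlaps.

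Levels between genes can be set side by side only per length. As CPM per kb of exon, Lck (182), Ptprc (162) and Cd3e (153) were the most abundant of the 35 after FP, and Dgka (173), Lck (172) and Cd3e (142) after PBS. Tec was 6.19 after FP and 2.89 after PBS, the lowest of the 35 in PBS. The exon length is the union of all annotated exons, which lowers the value of a gene with long, rarely used exons.

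**Figure D4:**
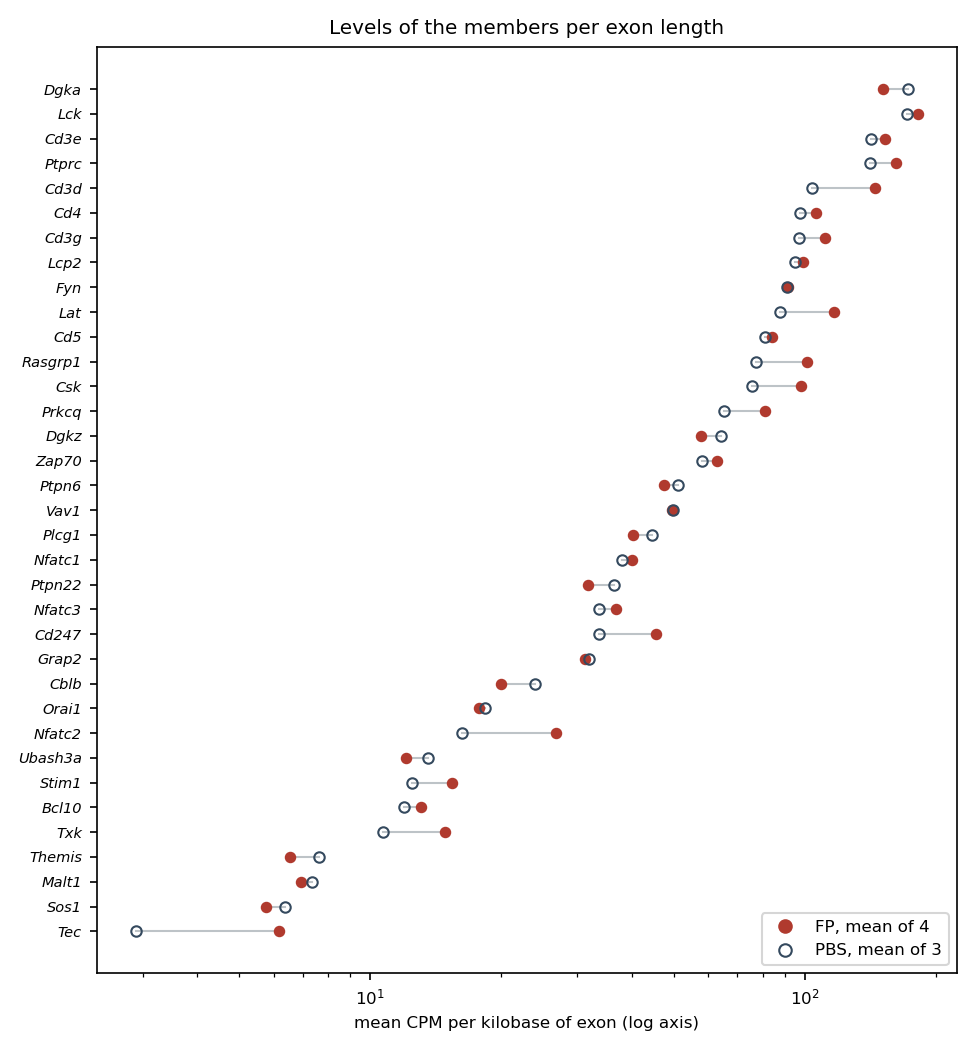
Mean level (CPM per kb of exon, log axis) of each of the 35 genes after FP and after PBS, ordered by the PBS level. Values after PBS run from 173 for Dgka down to 2.89 for Tec, and most pairs of points nearly coincide.

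The FP libraries varied more among themselves than the PBS libraries. The coefficient of variation of the 35 genes ran from 3.35% (Ptprc) to 20.3% (Cd3g) after FP, with a median of 9.97%, and from 0.993% (Cblb) to 12.9% (Tec) after PBS, with a median of 5.18%. Among genes with a group mean at least as high as the overall mean of Tec, the lowest of the 35, the medians were 11.8% over 7470 genes after FP and 6.89% over 7244 genes after PBS. FP replicate 2 was the highest FP library for 21 of the 35 genes and the lowest for 0, and its median offset from the PBS mean was 0.24 on the log2(CPM + 1) scale, against 0.03, 0.08 and 0.00 for FP replicates 1, 3 and 4. Over all genes tested the offset of FP replicate 2 was -0.05. Without FP replicate 2, 8 of the 10 calls remained, Cd3d and Cd247 were lost, and 17.8% of all genes tested were higher.

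Other genes of the pathway were taken from 4 lists of 103 genes, of which 101 could be tested. They held 26 higher calls (25.7%), 10 lower (9.9%) and 65 genes that missed the threshold, against 21.0% higher and 18.5% lower among all genes, and their median log2 fold change was 0.13. The balance turned with the scaling, as it did over all genes tested. With upper-quartile factors these genes had 18 higher and 26 lower calls, where 15.0% of all genes were higher and 30.2% lower. With library size alone they had 13 higher and 26 lower calls, where 12.7% of all genes were higher and 31.5% lower. Of 30 further kinases and adaptors, 9 were higher and 5 lower. Trat1 (TRIM), a transmembrane adaptor of the receptor complex, had 116, 109, 70.5 and 57.3 CPM after FP and 39.8, 31.9 and 34.3 CPM after PBS and rose by 1.32 (SE 0.24, adjusted p = 0.00285, edgeR). The adaptors Nck2 (0.61, adjusted p = 0.000633) and Dok2 (0.69, adjusted p = 0.00104), the second a docking protein that restrains Ras, also rose. Vav2 fell by 0.78 (adjusted p = 0.000401), and Lax1, a negative adaptor, by 0.35 (adjusted p = 0.0182, edgeR).

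Of 23 tested genes of the Ras and NF-kB arms, 5 were higher (21.7%) and 2 lower (8.7%). Among all genes tested, 21.0% were higher and 18.5% lower. Hras (0.88, adjusted p = 0.00184), Casp8, a protease that works with Malt1 (0.66, adjusted p = 0.00357), and the MAP kinase kinase Map2k2 (0.44, adjusted p = 0.00499) rose. The Raf kinase Braf fell by 0.59 (adjusted p = 0.000438) and the exchange factor Sos2 by 0.32 (adjusted p = 0.0406, edgeR).

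Of 26 further calcium genes, 7 were higher (26.9%) and 3 lower (11.5%), against 21.0% higher and 18.5% lower among all genes tested. The plasma membrane calcium pump Atp2b4 had 193, 258, 244 and 200 CPM after FP and 94.8, 71.2 and 87.6 CPM after PBS and rose by 1.40 (SE 0.14, adjusted p = 4.91e-05, edgeR). The calmodulin gene Calm3 rose by 1.36 (adjusted p = 0.00021) and the endoplasmic reticulum pump Atp2a3 by 0.70 (adjusted p = 0.000901, edgeR). Calm2 (1.20, adjusted p = 0.0107) was also higher; it is named after its value was seen, and near-identical coding sequences make the split of reads between calmodulin genes uncertain. Nfat5, the family member that responds to salt rather than calcium, fell by 0.82 (adjusted p = 0.00164), the calcium release channel Itpr2 by 0.30 (adjusted p = 0.0133) and the channel subunit Orai2 by 0.47 (adjusted p = 0.0137, edgeR). Of 22 tested genes of restraint, 5 were higher (22.7%), 0 were lower and 17 did not pass, beside the same shares of all genes. Among the higher ones were the phosphatase Ptpn7 (0.67, adjusted p = 0.000508) and the Src-like adaptors Sla (0.32, adjusted p = 0.0136) and Sla2 (0.66, adjusted p = 0.000475, edgeR), of which 23.6% of the Sla2 exon length overlaps Rab5if.

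The B cell and myeloid counterparts of these proteins were also listed, and which cells their RNA came from was not tested. Of 10 such genes, 5 were lower and 1, Cd79b, was higher (0.73, adjusted p = 0.0278, edgeR). Among all genes tested, 18.5% were lower and 21.0% higher. Lyn, the Src-family kinase of B and myeloid cells, had 8.8, 12.4, 5.3 and 7.9 CPM after FP and 21.9, 50.8 and 38.9 CPM after PBS and fell by 2.12 (adjusted p = 0.000903, edgeR). Blnk, a B cell adaptor, averaged 0.53 CPM after FP and 4.68 CPM after PBS and fell by 3.08 (adjusted p = 0.00156, edgeR), and Plcg2, the phospholipase of B cells, averaged 2.26 CPM after FP and 7.33 CPM after PBS and fell by 1.70 (adjusted p = 0.0018, edgeR). PBS replicate 1 was the lowest PBS library for all 3, as it was for the summed macrophage markers.

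**Figure D5:**
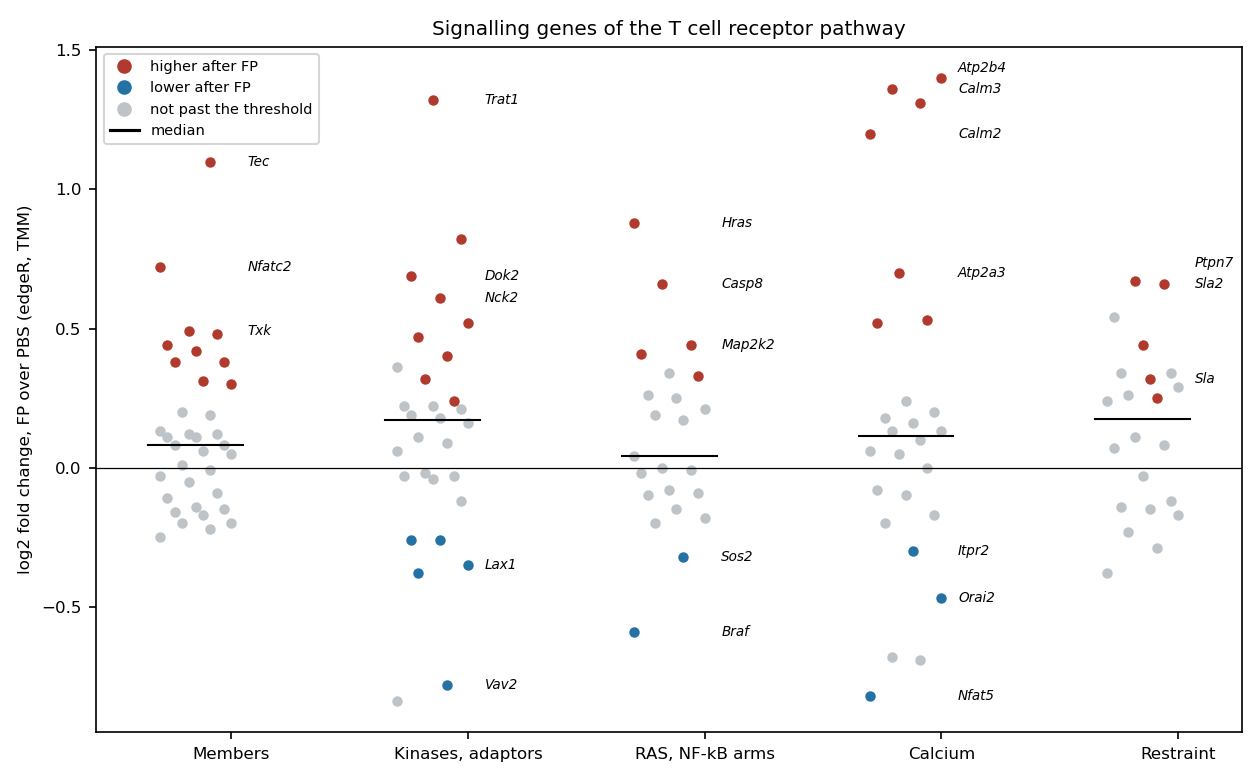
Log2 fold change (FP over PBS, vertical axis, edgeR with TMM factors) of the 35 genes (members) and of the 4 lists of other pathway genes, with 1 point per gene, red for higher, blue for lower and grey for genes that did not pass the test, and a line at each list's median. Atp2b4 (1.40), Calm3 (1.36) and Trat1 (1.32) are the highest points, and Nfat5 (-0.82) and Vav2 (-0.78) the lowest of the called ones.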

How the data were processed

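RNA was measured in sorted spleen Tregs, 4 samples after FP and 3 after PBS, grouped by their labels. Per the labels' protocols, libraries were made from total RNA after removal of ribosomal RNA. The authors mapped reads to GRCm38 with STAR 2.5.0b and counted them per GENCODE gene with featureCounts 1.5.0, per the submitters' processing notes and the design text, and deposited raw counts of 51138 genes. Whether counting used strand is not given in the sources used here.

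Counts after FP and after PBS were tested in edgeR 4.0.16 (R 4.3.3; filterByExpr, TMM factors, robust quasi-likelihood fit), with Benjamini-Hochberg adjustment over 15954 genes and a threshold of 0.05. Every adjusted p of a gene comes from this fit unless another tool is named. Standard errors and 95% intervals come from the same test. Exon lengths and overlaps were taken from a later GENCODE annotation of the same build. The fit was tried on simulated counts first.

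Total counts per library ran from 9956509 to 13429878, and the 35 genes had at least 126 counts (Tec) in each library. Reads carry no molecular identifiers and are not independent molecules. Alternatives were 3 other scalings, DESeq2 1.42.0, limma-voom (limma 3.58.1), 2 other filters, a replicate block and leaving out each library. All 35 genes were to be named, with up to 3 genes per direction and list by smallest p from the other lists. Some of these genes are not reported here by name and are included in the counts of their lists. The 35 genes and all lists were chosen with earlier results of these data known.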

Additional observations from a re-analysis of the deposited data

Results flagged for a closer look

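Among the 35 genes, the 4 FP libraries were searched for a library far from the other 3 by Dixon's ratio of gap to range at its 95% critical value. FP replicate 2 stood alone at the top for 3 genes: Lcp2 at 493 CPM (gap over range 0.870), Ptpn6 at 155 CPM (0.861) and Cd5 at 475 CPM (0.912). Chance gives such a result in about 1 of 20 groups, and 35 were searched. None of the 3 genes was called between FP and PBS.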

How the results depend on the processing

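Of the 10 higher calls, Tec and Nfatc2 held under each of the 15 alternatives. Higher and lower calls among the 35 genes were 3 and 10 with upper-quartile factors, and 2 and 10 with library size alone. Over all genes tested, 15.0% were higher and 30.2% lower with upper-quartile factors, and 12.7% higher and 31.5% lower with library size alone. Lower calls, 0 in the fit described above, were 1 with limma-voom, 1 with the filter of 1 CPM in 3 libraries and 2 with the replicate block. These alternatives kept the TMM factors. In the same order, 6198, 6264 and 7871 of all genes were called in either direction, against 6308 in the fit described above. Leaving out 1 library gave 3 to 10 higher and 0 to 2 lower calls among the 35 genes, and 4088 to 7278 calls among all genes. The other pathway genes had 18 higher and 26 lower calls with upper-quartile factors, 13 higher and 26 lower calls with library size alone, and 17 to 33 higher and 4 to 10 lower calls when 1 library was left out.

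Signs turned only for genes that did not pass the test. With upper-quartile factors the log2 fold changes were -0.10 (Cd3e), -0.02 (Cd3g), -0.08 (Cd4), -0.12 (Lck), -0.19 (Fyn), -0.09 (Zap70), -0.14 (Lcp2), -0.09 (Bcl10), -0.12 (Nfatc1), -0.07 (Nfatc3), 0.00 (Ptprc) and -0.16 (Cd5). With library size alone they were -0.16, -0.09, -0.15, -0.19, -0.25, -0.15, -0.21, -0.16, -0.18, -0.14, -0.07 and -0.22 for the same genes in the same order. Vav1 was 0.01 with DESeq2 size factors and in the DESeq2 test and 0.02 without a filter, and Orai1 was 0.01 with the replicate block. With 1 library left out, the range was -0.02 to 0.07 for Fyn, -0.08 to 0.01 for Grap2, -0.04 to 0.05 for Vav1, -0.11 to 0.01 for Orai1 and -0.02 to 0.12 for Cd5. The cause of these shifts was not tested.

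Replicate numbers are not known to pair the samples: deviations of same-numbered libraries correlated at 0.2187, 0.07022 and 0.09661, and PBS replicate 3 correlated best with FP replicate 4 (0.3942). With the replicate block, 10 of the 35 genes were higher and 2 lower (Cblb and Ptpn22), and 7871 genes were called in all.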
